A study of Mus musculus with 9 samples.

Results

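Grhl1, Grhl2, Grhl3, Ovol1, Ovol2, Tfap2a, Trp63, Dlx5 and Msx2 are 9 transcription factor genes of surface ectoderm and of the epithelia that form from it. They were chosen by symbol, and the levels of their annotated transcripts were summed, so the set holds 9 of the 52609 genes summed in every library. The study asked how Wnt signalling acts on cells of the mouse epiblast. RNA was sequenced from lines that the labels describe as epiblast stem cells, which are grown from the epiblast of the early embryo and can still form all 3 germ layers. A line with a knockout of Dkk1, whose product is a secreted antagonist of Wnt receptors, gave 3 libraries (Dkk1_KO). Lines from which the Wnt inhibitor IWP2 was taken away after derivation (IWP2_removed) and lines kept in 5 µM IWP2 (IWP2) gave 2 libraries each. IWP2 blocks Porcupine, the enzyme that Wnt proteins need for secretion. Untreated lines of a control genotype gave 2 libraries (control). All 4 groups were grown in serum replacement medium that held 20 ng/mL Activin A and 10 ng/mL FGF2, on gelatin and inactivated mouse embryonic fibroblasts. RNA of these feeder cells can therefore be present in every library. The labels do not say how the knockout was made, whether it is 1 clone, or whether replicate libraries came from separate cultures, so p-values here measure only the spread between these libraries, which may be technical.

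Surface ectoderm is the layer that gives rise to epidermis and its appendages, and its early epithelium is simple before it becomes layered. Grainyhead-like (Grhl) proteins bind genes of cell junctions and keep cells epithelial, Ovol proteins are zinc finger repressors that hold back mesenchymal genes, and Tfap2a, Dlx5 and Msx2 act at the border between surface ectoderm and neural plate, where they respond to BMP and Wnt signals. Trp63 encodes p63, the factor that commits ectoderm to layered epithelium. In epiblast cells kept in a primed pluripotent state such genes are typically low.

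The libraries held from 10849490 to 17892751 estimated reads, and 18096 genes passed the filter on low counts. Dkk1 itself was measured at 0.190, 0.228 and 0.309 TPM (transcript level scaled by transcript length and by the library's total) in Dkk1_KO, against 2.36 and 2.64 TPM in control. It was at 1.07 and 1.69 TPM in IWP2_removed and at 0.945 and 0.0930 TPM in IWP2. IWP2 replicate 2 thus lay below every Dkk1_KO library, and a low level was not particular to Dkk1_KO. Replicates of Dkk1_KO lay close together, with a chi-square per degree of freedom of 1.79 to 2.27 where counting error alone gives a value near 1, against 39.1 for IWP2_removed, 95.4 for IWP2 and 33 for control. The label of epiblast stem cell was checked against 17 epiblast genes. In Dkk1_KO 10 of them were lower than in control and 5 higher, where 23.0% of all genes tested were lower and 21.3% higher. Their summed level was 454 to 474 TPM in Dkk1_KO, against 1129 to 1477 TPM in control. Among the defining markers Nanog was at 0.638 ± 0.046 TPM in Dkk1_KO and 61.6 ± 7.51 TPM in control (SD, n = 3 and 2). The Dkk1_KO libraries thus went against their label in 10 of these 17 genes. Of the 17, 5 had no Dkk1_KO library above the filter's minimum and 1 had fewer than 2 libraries outside Dkk1_KO above it. The 5 that were higher are named here after their values were seen. Utf1 was at 99.9 ± 6.44 TPM in Dkk1_KO and 6.07 ± 2.27 TPM in control, Cldn6 at 170 ± 2.42 TPM in Dkk1_KO and 7.38 ± 1.08 TPM in control, Dnmt3b at 78.0 ± 1.34 TPM in Dkk1_KO and 30.2 ± 2.79 TPM in control, and Pou3f1 at 13.6 ± 0.651 TPM in Dkk1_KO and 2.76 ± 0.046 TPM in control (SD, n = 3 and 2). Dppa5a held 86 to 96 reads in Dkk1_KO and no read in control.

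Of the 9 genes, 6 were higher in Dkk1_KO than in control at an adjusted p below 0.05 in edgeR's quasi-likelihood test, and none was lower. These were Grhl1, Grhl2, Grhl3, Ovol2, Tfap2a and Msx2. Of these Ovol2 passed the filter only through the Dkk1_KO libraries, so its direction in this count was set in advance. Trp63 was tested and not called, and Ovol1 and Dlx5 did not pass the filter. The same rule called 44.3% of all 18096 genes tested in this comparison, 21.3% as higher and 23.0% as lower. With the 3 close Dkk1_KO libraries averaged to 1, the 6 genes had edgeR log2 fold changes from 2.73 (Grhl1) to 5.12 (Grhl2). In the 3 Dkk1_KO libraries the 9 genes summed to 46.6, 49.1 and 52.8 TPM, against 4.30 and 2.99 TPM in IWP2_removed, 9.01 and 2.67 TPM in IWP2, and 4.26 and 3.43 TPM in control. No Dkk1_KO library overlapped any other library in this sum. In bulk RNA, a larger share of cells with a transcript and more of it per cell cannot be told apart. All comparisons with control share the 2 control libraries, so they are not independent of each other.

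**Figure D1:**
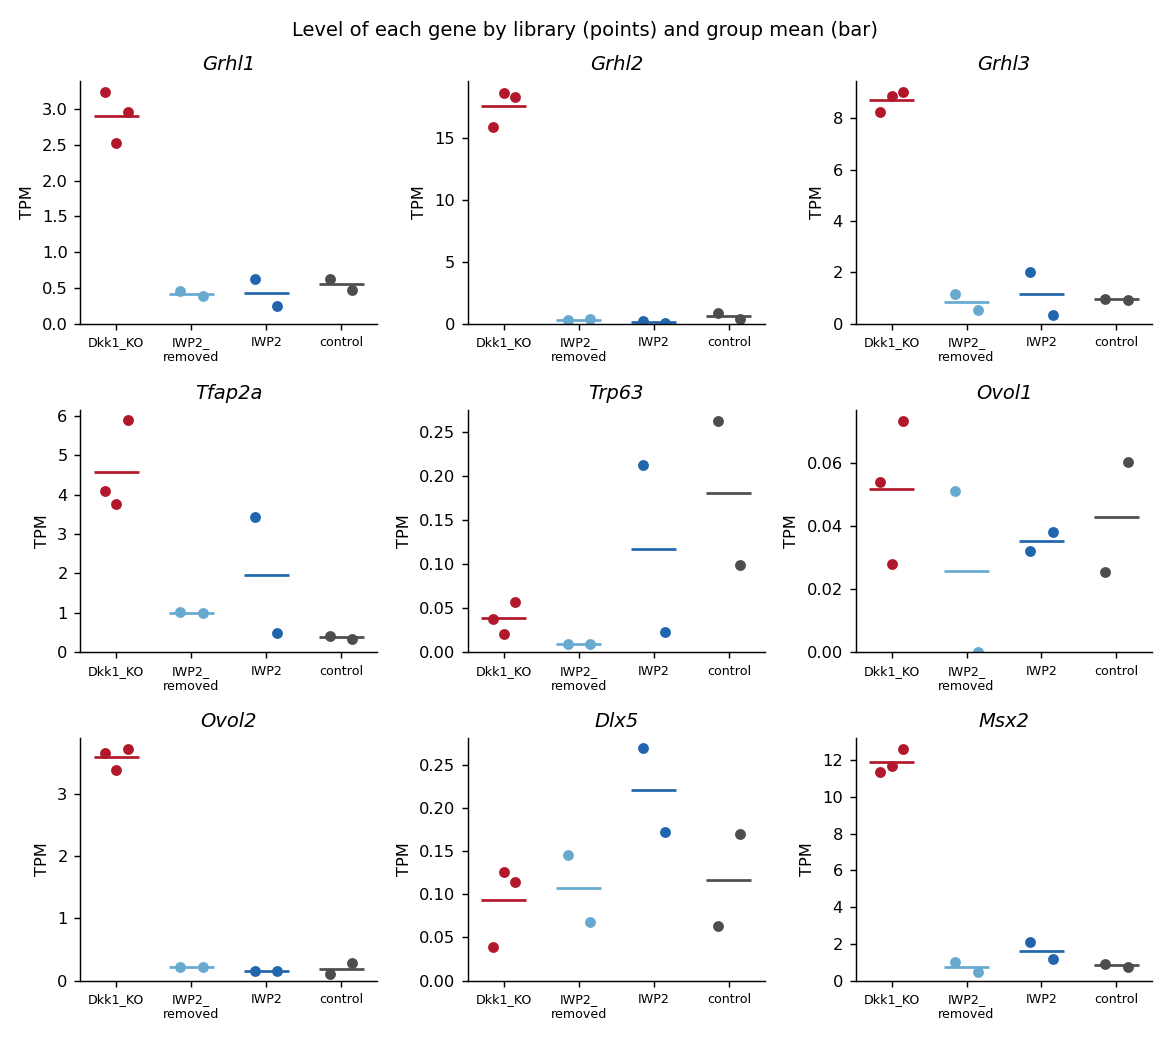
Level of each of the 9 genes in TPM (vertical axis, linear, with its own scale for each gene) in the 3 Dkk1_KO libraries and the 2 libraries each of IWP2_removed, IWP2 and control. Points are libraries and bars are group means, and the Dkk1_KO points of Grhl1, Grhl2, Grhl3, Tfap2a, Ovol2 and Msx2 lie above all other points. The share of all genes that separate in this way is not reported here, so this is a description of single genes only.

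The Grhl genes were the most abundant family of the set in Dkk1_KO. Grhl2, needed for epithelial junctions and neural tube closure, lies on chromosome 15 (37233036 to 37363569, plus strand, GRCm38). Its level was 15.9, 18.7 and 18.3 TPM in Dkk1_KO, against 0.280 and 0.348 TPM in IWP2_removed, 0.210 and 0.0641 TPM in IWP2, and 0.877 and 0.356 TPM in control. All 3 Dkk1_KO libraries were high and the other 6 were below 1 TPM. Grhl2 rose by 5.12 ± 0.28 on the log2 scale (SE, from counts) in Dkk1_KO against control (edgeR adjusted p = 5.61e-06), the largest fold change among the 7 genes tested. The reads behind it were 1153, 1052 and 1119 in Dkk1_KO, against 34.3 and 27.3 in control.

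Grhl3, which acts in the skin barrier and in closure of the neural tube, lies on chromosome 4 (135541888 to 135573630, minus strand). It was measured at 8.23, 8.85 and 9.01 TPM in Dkk1_KO, against 1.14 and 0.515 TPM in IWP2_removed, 1.99 and 0.332 TPM in IWP2, and 0.958 and 0.929 TPM in control. Dkk1_KO stood above all other libraries, and the 2 IWP2 libraries lay on either side of control. In Dkk1_KO against control Grhl3 rose by 3.43 ± 0.60 (log2, SE; edgeR adjusted p = 0.002).

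Grhl1, a regulator of desmosomal genes in epidermis, lies on chromosome 12 (24572283 to 24617391, plus strand). Its level was 3.25, 2.53 and 2.96 TPM in Dkk1_KO, against 0.454 and 0.383 TPM in IWP2_removed, 0.623 and 0.243 TPM in IWP2, and 0.627 and 0.471 TPM in control. The Dkk1_KO libraries did not overlap the rest. The rise was 2.71 ± 0.34 (log2, SE; edgeR adjusted p = 0.000324), the smallest of the 6.

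The Grhl genes were then read by transcript, because Grhl1 has coding transcripts from a pair of start sites. Grhl1-202 begins at 24572283 and Grhl1-201 begins downstream at 24580749. Grhl1-202 held 89 to 107.3 estimated reads in Dkk1_KO, against 1.7 to 5.4 reads over the other 6 libraries. Grhl1-201 held 66.1 to 121.8 reads in Dkk1_KO, against 13.3 to 37.4 reads over the other 6. Of the gene's TPM, Grhl1-202 made up 42.5% to 49.4% in Dkk1_KO, against 3.41% to 18.0% in the other 6 libraries. Both coding transcripts were thus higher in Dkk1_KO without overlap, and the share of Grhl1-202 did not overlap either. Grhl1-203, a non-coding transcript that begins 4 bases from Grhl1-202, made up 2.30% to 8.82% in Dkk1_KO, against 8.97% to 22.4% in the other 6. Both transcripts of the upstream start together made up 44.8% to 58.2% of the gene's TPM in Dkk1_KO, against 15.9% to 34.8% in the other 6, so these ranges lay closer than those of Grhl1-202 alone. Salmon divides reads among transcripts that share exons by estimate, and these shares were not tested.

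**Figure D2:**
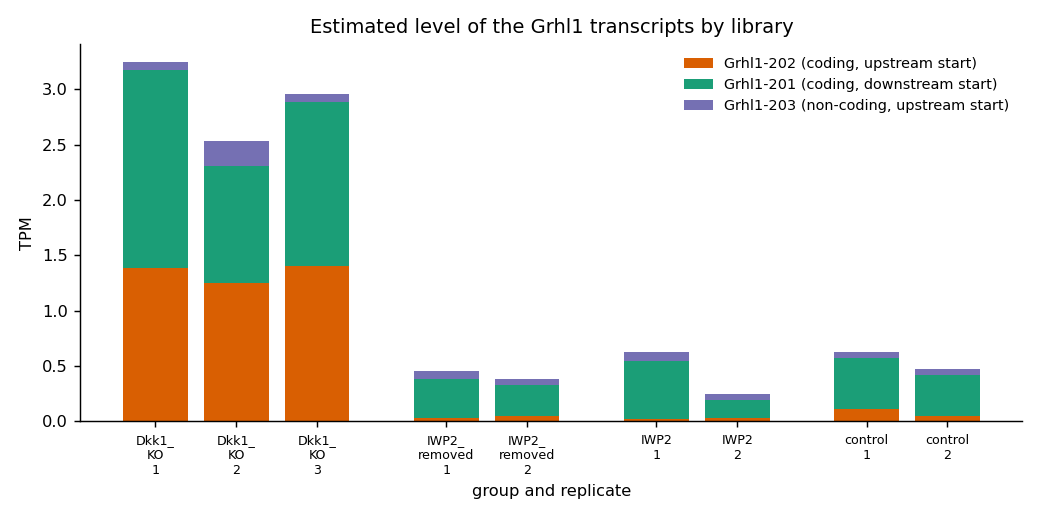
Level of the Grhl1 transcripts in TPM (vertical axis, from 0), stacked, with 1 bar per library in the order Dkk1_KO, IWP2_removed, IWP2 and control. In the 3 Dkk1_KO bars the coding upstream-start transcript Grhl1-202 takes 42.5% to 49.4% of the height, and in the other 6 bars 3.41% to 18.0%.

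Grhl2 was divided over several transcripts in Dkk1_KO, where Grhl2-201 made up 39.1% to 48.1% of the gene's TPM, Grhl2-204 24.4% to 27.9%, Grhl2-205 13.1% to 17.2% and Grhl2-202 8.43% to 17.7%. Grhl2-201 held 759.9 to 864.2 reads there, against 0 to 12.6 in the other 6 libraries. Grhl2-205, which starts inside the gene, held 192.6 to 221.8 reads in Dkk1_KO, against 0 to 19.5 in the others. The antisense gene Gm16136 overlaps Grhl2 and reached at most 51 reads in a library. The sources used here do not give whether Salmon counted by strand, so reads of this pair may not be fully separated. Grhl3 has 1 annotated transcript.

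The promoters of Grhl1 and Grhl3, which rose together in Dkk1_KO, are shown 5′ to 3′ as RefSeq gives them on GRCm38.p6, with 250 bases before the annotated start and 50 after it. Capitals mark matches to the motifs searched on both strands.
Grhl1 upstream start, chr12:24572037-24572336, plus strand: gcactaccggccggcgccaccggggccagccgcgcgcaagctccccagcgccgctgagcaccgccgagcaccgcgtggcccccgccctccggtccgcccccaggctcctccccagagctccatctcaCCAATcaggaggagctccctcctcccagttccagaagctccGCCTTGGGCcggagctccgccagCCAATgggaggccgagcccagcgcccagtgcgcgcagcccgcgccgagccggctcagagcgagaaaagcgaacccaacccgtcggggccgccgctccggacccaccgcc
Grhl1 downstream start, chr12:24580469-24580768, plus strand: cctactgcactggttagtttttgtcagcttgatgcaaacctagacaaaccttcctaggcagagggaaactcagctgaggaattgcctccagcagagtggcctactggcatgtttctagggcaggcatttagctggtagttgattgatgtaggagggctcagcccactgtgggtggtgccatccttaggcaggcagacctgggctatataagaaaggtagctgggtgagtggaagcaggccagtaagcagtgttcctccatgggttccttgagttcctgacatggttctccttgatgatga
Grhl3, chr4:135573583-135573882, minus strand: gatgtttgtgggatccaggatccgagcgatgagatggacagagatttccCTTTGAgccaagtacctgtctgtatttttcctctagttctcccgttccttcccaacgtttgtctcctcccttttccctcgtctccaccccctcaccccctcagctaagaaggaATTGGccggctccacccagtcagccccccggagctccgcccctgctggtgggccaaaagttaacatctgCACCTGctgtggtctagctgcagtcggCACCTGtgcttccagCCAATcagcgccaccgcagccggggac
Searched were AACCGGTT (Grhl proteins), GCCNNNGGC (AP-2 proteins, among them Tfap2a), CACCTG (Zeb proteins), CTTTGA (TCF/LEF proteins, which act in Wnt signalling), GGAATG (TEAD proteins), TATAAA and CCAAT. The upstream Grhl1 promoter is rich in G and C (75.3% of bases) and holds an AP-2 match at position -82 from the start and CCAAT at -123 and -59. The downstream Grhl1 promoter (51.3% G and C) holds no match. In the Grhl3 promoter CACCTG stands at positions -19 and 9, CTTTGA further upstream, and CCAAT at 24 and, on the other strand, at -88. Among all 32851 promoters of the table, 16.6% hold the AP-2 motif, 20.2% CACCTG, 16.0% CTTTGA, 14.7% GGAATG, 13.6% TATAAA, 37.4% CCAAT and 0.146% AACCGGTT, so single matches of most of these letters are common. The matches printed do not overlap each other. A match is a description of these letters and was not tested for binding.

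Ovol2 and Ovol1 differed in level within the same libraries. Ovol2, on chromosome 2 (144305175 to 144332146, minus strand), represses Zeb1 in epithelial cells. It was measured at 3.66, 3.38 and 3.72 TPM in Dkk1_KO, against 0.222 and 0.215 TPM in IWP2_removed, 0.153 and 0.157 TPM in IWP2, and 0.105 and 0.279 TPM in control. The 3 Dkk1_KO libraries were above all others, with 90 to 114 reads there and 2 to 9 reads in each of the other 6. Ovol2 rose by 4.26 ± 0.44 in Dkk1_KO against control (log2, SE; edgeR adjusted p = 0.000119). It passed the filter only through the Dkk1_KO libraries, so that a tested Ovol2 had to be high there, and its fold change rests on few control reads.

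Ovol1, on chromosome 19 (5549136 to 5560646, minus strand), acts later, in differentiating epidermis. It had 3.5, 1.7 and 4.6 reads in Dkk1_KO, 3.3 and 0 reads in IWP2_removed, 2.2 and 3 reads in IWP2, and 1 and 4 reads in control. All groups overlapped at this depth, with 23 reads in all 9 libraries. The count of 0 in IWP2_removed replicate 2 allows up to 0.188 CPM (counts scaled to the library total; from 3 counts, counting error only). Without the filter its difference between Dkk1_KO and control was 0.43 ± 1.03 (log2, SE; edgeR adjusted p = 0.877).
RefSeq's start of Ovol2 lies 784 bases downstream of that of Ovol2-201, the coding transcript that held 85.3% to 100% of the gene's TPM in Dkk1_KO, so the RefSeq window is not the start region of this transcript and its sequence is not shown.

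Tfap2a and Trp63 are early and later regulators of surface ectoderm. Tfap2a, which encodes AP-2 alpha and also serves neural crest, lies on chromosome 13 (40715302 to 40738376, minus strand). Its level was 4.10, 3.76 and 5.88 TPM in Dkk1_KO, against 1.01 and 0.984 TPM in IWP2_removed, 3.43 and 0.476 TPM in IWP2, and 0.417 and 0.324 TPM in control. The Dkk1_KO libraries did not overlap the rest, but IWP2 replicate 1 came close to the lowest of them. In Dkk1_KO against control Tfap2a rose by 3.50 ± 0.57 (log2, SE; edgeR adjusted p = 0.00138). Its reads are divided by estimate over 9 annotated transcripts, of which 6 code for protein, and its mean in Dkk1_KO was 3.15 TPM over the coding transcripts alone, against 4.58 TPM over all of them.

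Trp63 lies on chromosome 16 (25683763 to 25892102, plus strand). It had 4, 2 and 6 reads in Dkk1_KO, 1 and 1 reads in IWP2_removed, 11 and 2 reads in IWP2, and 9 and 11 reads in control. Trp63 was below 0.3 TPM in every library, and the Dkk1_KO libraries lay below both control libraries, above both IWP2_removed libraries and overlapped IWP2. The difference between Dkk1_KO and control was -1.34 ± 0.68 (log2, SE; edgeR adjusted p = 0.144). Trp63 passed the filter through 2 control libraries and 1 IWP2 library, so that a tested Trp63 had to be high outside Dkk1_KO. Over all libraries 44.6 reads were assigned to the 4 transcripts that begin at the internal start (25801916), from which the delta-N forms typical of basal epithelium are made, and 2.4 reads to the 4 transcripts of the upstream start. By group the internal start held 12 reads in Dkk1_KO, 2 in IWP2_removed, 13 in IWP2 and 17.6 in control.

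Msx2 and Dlx5 are homeobox genes. Msx2, a target of BMP signalling in ectoderm, lies on chromosome 13 (53466884 to 53473074, minus strand). It was measured at 11.3, 11.7 and 12.6 TPM in Dkk1_KO, against 0.985 and 0.468 TPM in IWP2_removed, 2.08 and 1.16 TPM in IWP2, and 0.922 and 0.744 TPM in control. Dkk1_KO was above every other library, and both IWP2 libraries were above both of control and both of IWP2_removed. Msx2 rose by 4.07 ± 0.31 in Dkk1_KO against control (log2, SE; edgeR adjusted p = 2.34e-05).
RefSeq's start of Msx2 lies 294 bases downstream of that of Msx2-201, which held 98.9% to 99.6% of the gene's TPM in Dkk1_KO, and its window is not shown either.
Dlx5, on chromosome 6 (6877805 to 6882085, minus strand), marks the anterior border of the neural plate. It had 1, 3 and 3 reads in Dkk1_KO, 4 and 2 reads in IWP2_removed, 8 and 6 reads in IWP2, and 1 and 5 reads in control. The 2 IWP2 libraries held the most reads, but IWP2 replicate 2 was at 0.172 TPM, against 0.170 TPM in control replicate 2. Dkk1_KO overlapped IWP2_removed and control. Without the filter IWP2 differed from control by 0.86 ± 0.93 (log2, SE, edgeR adjusted p = 0.879). Without the filter the difference between Dkk1_KO and control was -0.30 ± 0.97 (log2, SE; edgeR adjusted p = 0.946).

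Within Dkk1_KO the order of mean levels was Grhl2 (17.6 ± 1.53 TPM), Msx2 (11.9 ± 0.651), Grhl3 (8.70 ± 0.413), Tfap2a (4.58 ± 1.14), Ovol2 (3.59 ± 0.182) and Grhl1 (2.91 ± 0.361; SD, n = 3). Neighbours in this order did not overlap between libraries. Dlx5 (0.0929 ± 0.0474 TPM), Ovol1 (0.0518 ± 0.0227) and Trp63 (0.0382 ± 0.0183) followed, and these 3 overlapped each other. In control the order was another, with Grhl3 first at 0.944 ± 0.021 TPM and Msx2 next at 0.833 ± 0.126 TPM, and Tfap2a lower at 0.371 ± 0.066 TPM (SD, n = 2).

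**Figure D3:**
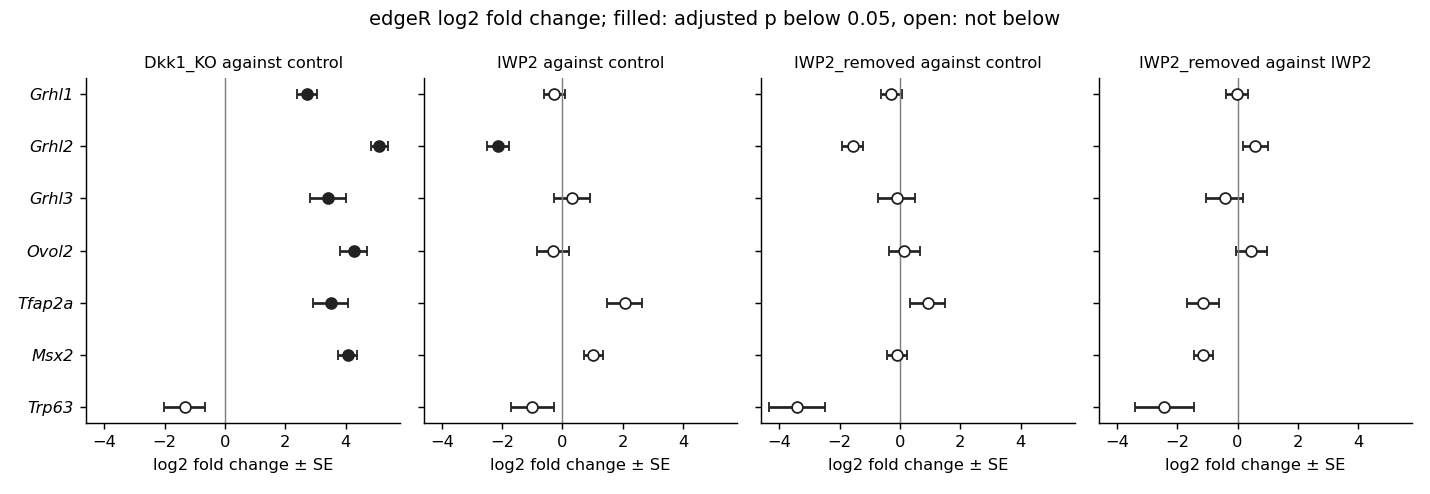
Log2 fold change from edgeR (horizontal axis) with its standard error for the 7 tested genes in Dkk1_KO against control, IWP2 against control, IWP2_removed against control and IWP2_removed against IWP2. Filled points passed an adjusted p of 0.05: 6 genes on the right in Dkk1_KO against control, and Grhl2 at -2.15 in IWP2 against control; Trp63 in the panels of IWP2_removed rests on 1 read per IWP2_removed library.

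Inhibition of Wnt secretion was asked about by the comparison of IWP2 with control. Of the 9 genes, 1 was called, Grhl2, which was lower in IWP2, where 2.19% of all genes tested were called and 0.917% as lower. Its reads were 12.2 and 6.3 in IWP2, against 34.3 and 27.3 in control. The reads of the groups did not overlap, and Grhl2 fell by 2.15 on the log2 scale (SE 0.37; edgeR adjusted p = 0.0265). DESeq2 called Grhl2 and Tfap2a, where it called 5.90% of all genes. The call of Grhl2 rests on few reads and was lost, with the same direction, in several other fits, among them the 6 libraries without Dkk1_KO (edgeR adjusted p = 0.303) and the fit without control replicate 1 (0.0925) or without IWP2 replicate 2 (0.0558).

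Tfap2a, Msx2 and Grhl3 differed between the 2 IWP2 libraries, and so did other genes of the set. In IWP2 replicates 1 and 2 Grhl1 was at 2.50 and 1.22 CPM. On fewer reads Grhl2 was at 0.677 and 0.365 CPM and Trp63 at 0.612 and 0.116 CPM. Tfap2a had 159 reads in IWP2 replicate 1 and 38.1 in replicate 2, against 15 and 21 in control. Both IWP2 libraries were above both control libraries, and the difference was 2.06 ± 0.58 (log2, SE; edgeR adjusted p = 0.119), which did not pass. It passed without IWP2 replicate 2 (2.73, edgeR adjusted p = 0.00484). Msx2 differed by 1.03 ± 0.31 (edgeR adjusted p = 0.140). Grhl3 had 128 and 25 reads in IWP2, against 36 and 59 in control, and its difference of 0.32 ± 0.61 (edgeR adjusted p = 0.862) turned to -1.26 without IWP2 replicate 1. Genes of feeder fibroblasts, 16 in all, summed to 1641 TPM in IWP2 replicate 1 and 875 TPM in replicate 2, against 2300.1 and 1635 TPM in control, and epiblast genes to 1164 and 2029 TPM in IWP2, against 1477 and 1129 TPM in control. The part of these differences in the results for Tfap2a and Grhl3 was not tested.

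Removal of the inhibitor was read against control and against IWP2. In IWP2_removed against control none of the 9 genes was called by edgeR, where 1.25% of all genes tested were. At an unadjusted p below 0.05 there were 2 of the 9, Grhl2 and Trp63, where 11.9% of all genes passed, and DESeq2 called 1, Grhl2 (3.63% of all genes). Grhl2 had 14 and 11.1 reads in IWP2_removed, against 34.3 and 27.3 in control, a difference of -1.57 ± 0.35 (log2, SE; edgeR adjusted p = 0.0839). Both IWP2_removed libraries were below both control libraries. For Trp63, with 1 read in each IWP2_removed library, no fold is given.

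In IWP2_removed against IWP2 none of the 9 genes was called by edgeR, where 0.0608% of all genes tested were. Unadjusted p-values were below 0.05 for 2 of them, Msx2 and Trp63, against 9.69% of all genes, and DESeq2 called 1, Msx2 (2.11% of all genes). Msx2 had 53 and 26 reads in IWP2_removed, against 113.1 and 75 in IWP2, a difference of -1.13 ± 0.31 (log2, SE; edgeR adjusted p = 0.229). The libraries of these groups did not overlap. Tfap2a differed by -1.15 ± 0.54 (edgeR adjusted p = 0.564), and both IWP2_removed libraries lay between the 2 IWP2 libraries.

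Further genes of the same families did not follow a single direction in Dkk1_KO. Of 17 relatives of the 9 genes, 14 were tested, and 6 were higher and 4 lower than in control. Over all genes tested 21.3% were higher and 23.0% lower. The median log2 fold change was -0.07, against -0.03 for all genes tested. Of the 14, 3 had fewer than 2 libraries outside Dkk1_KO above the filter's minimum and 3 had no Dkk1_KO library above it. Tfap2c, an AP-2 gene of trophoblast and germ cells, rose by 4.83 ± 0.43 (log2, SE), with 53.0 ± 0.597 TPM in Dkk1_KO, against 2.07 ± 0.278 TPM in control (edgeR adjusted p = 5.08e-05). Its level there was above that of all 9 genes. Dlx3, which serves placenta and skin, rose by 4.90 ± 0.59 (edgeR adjusted p = 0.000284), and Tfcp2l1, a relative of the Grhl genes known from naive pluripotent cells, by 4.08 ± 0.42 (0.000119). Trp73, the relative of Trp63, fell by 5.16 on the log2 scale (SE 0.43; edgeR adjusted p = 3.57e-05) to 0.145 ± 0.111 TPM in Dkk1_KO, against 2.50 ± 0.402 TPM in control.

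Genes of epithelial integrity, many of them known as targets of Grhl proteins, were read next. Of 24 listed, 23 were tested and 23 were higher in Dkk1_KO than in control (median log2 fold change 4.54). In this comparison 21.3% of all genes tested were higher. Of the 23, 3 had fewer than 2 libraries outside Dkk1_KO above the filter's minimum. Cldn4, a tight junction protein, was at 190 ± 6.89 TPM in Dkk1_KO and 0.538 ± 0.394 TPM in control (log2 fold change 8.53 ± 0.52, edgeR adjusted p = 8.82e-06). Pkp3 and Dsg2, both of desmosomes, rose by 7.16 ± 0.23 and 4.54 ± 0.18 (edgeR adjusted p = 8.05e-07 and 1.27e-06). Esrp1, a splicing regulator of epithelial cells, rose by 6.77 ± 0.32 (edgeR adjusted p = 2.78e-06). In IWP2 against control 1 of the 23 was called, where 2.19% of all genes tested were. It was Ehf, an epithelial Ets factor, which rose by 2.24 ± 0.46 (edgeR adjusted p = 0.0492). At an unadjusted p below 0.05 there were 13 of the 23, of which 10 had lower and 3 higher values in IWP2, where 16.4% of all genes passed. The median log2 fold change was -0.79, against 0.01 for all genes tested. In IWP2_removed against control 9 of the 23 were below that unadjusted p, 8 with lower and 1 with higher values, where 11.9% of all genes passed, and the median was -0.31. By adjusted p, in IWP2_removed against control Ehf rose by 2.46 ± 0.46 (edgeR adjusted p = 0.0474) and Dsg2 fell by 1.44 (SE 0.19, edgeR adjusted p = 0.0166). That rule called 1.25% of all genes tested in IWP2_removed against control. In this comparison the fit of the 6 libraries without Dkk1_KO called 1 of all genes, as higher. That fit thus did not call Dsg2 as lower, and its result for Ehf is not reported here.

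Mesenchymal genes that Ovol or Grhl proteins are known to repress had 11 members tested, of which 5 were lower and 1 higher in Dkk1_KO than in control (median log2 fold change -1.01). Among all genes tested 23.0% were lower and 21.3% higher. Zeb1 fell by 2.70 on the log2 scale (SE 0.16; edgeR adjusted p = 7.34e-06), and Cdh2, the cadherin of mesenchymal and neural cells, by 3.89 (SE 0.38; 8.52e-05). Zeb2 fell by 2.32 (SE 0.23; edgeR adjusted p = 0.000103) and Vim by 1.44 (SE 0.20; 0.000627). Fibroblasts express several of these genes, and the 16 feeder fibroblast genes moved with them: 11 were lower in Dkk1_KO and none higher (median -1.10), with a sum of 859 to 886 TPM in Dkk1_KO, against 1635 to 2300.1 TPM in control. Dcn, a feeder gene of the extracellular matrix, was at 2.27 ± 0.176 TPM in Dkk1_KO and 38.9 ± 7.72 TPM in control (log2 fold change -3.89 ± 0.20, edgeR adjusted p = 3.76e-06). Lum, Postn and Col3a1 of the same list had log2 fold changes of -3.31 ± 0.23, -2.15 ± 0.19 and -1.98 ± 0.20. The part of feeder RNA in the lower mesenchymal genes was not tested.

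Other genes of surface ectoderm and epidermis were mostly higher in Dkk1_KO, with exceptions. Of 24 listed, 21 were tested, 14 were higher and 2 lower than in control (median log2 fold change 1.75). Shares over all genes tested were 21.3% higher and 23.0% lower. Of the 21, 3 had fewer than 2 libraries outside Dkk1_KO above the filter's minimum and 3 had no Dkk1_KO library above it. Krt18, a keratin of simple epithelia, was at 554 ± 9.19 TPM in Dkk1_KO and 20.6 ± 10.5 TPM in control (log2 fold change 4.93 ± 0.51, edgeR adjusted p = 0.000122). Gata3, a factor of surface ectoderm and of trophoblast, rose by 5.21 ± 0.35 (edgeR adjusted p = 1.37e-05), Sfn, an adaptor protein of epithelial cells, by 7.90 ± 0.47 (7.85e-06), and Wnt6, a ligand of ectoderm, by 6.82 ± 0.73 (0.000142). Foxi3 of this list, named after its values were seen, held 0 to 3 reads in Dkk1_KO, against 42 to 106 in control. Krt5 and Krt14, keratins of layered epithelium also picked after their values were seen, had low levels. Krt15 and Krt17 of this list are not reported here. Krt5 was at 0.0365 ± 0.0447 TPM in Dkk1_KO and 0.103 ± 0.001 TPM in control, and Krt14 was at 0.408 ± 0.065 TPM in Dkk1_KO and without a read in control.

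Markers of other cell types moved with the 6 higher genes. Of 17 trophoblast genes, all tested, 14 were higher in Dkk1_KO than in control and none lower (median log2 fold change 4.90). Among all genes tested 21.3% were higher and 23.0% lower. Of the 17, 7 had fewer than 2 libraries outside Dkk1_KO above the filter's minimum. Tfap2c, Dlx3 and Gata3 of this list also stand in lists above. The 17 genes summed to 1077 to 1146 TPM in Dkk1_KO, against 94.4 to 131 TPM in control. Elf5, a factor of trophoblast stem cells, was at 163 ± 6.91 TPM in Dkk1_KO and 0.125 ± 0.111 TPM in control, and Hand1, a factor of trophoblast giant cells, at 383 ± 14.8 TPM in Dkk1_KO and 0.0434 ± 0.0614 TPM in control. Krt7, a keratin of simple and trophoblast epithelium, rose by 6.24 ± 0.24 (edgeR adjusted p = 1.23e-06), and Bmp8b by 8.51 ± 0.23 (5.29e-07). Trophoblast also expresses Tfap2a, Grhl2, Ovol2 and many junction genes, and the part of trophoblast-like expression in the rise of the 6 genes was not tested.

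Neural crest and neural plate border genes, from tissues that also express Tfap2a, Dlx5 and Msx2, showed no common direction. Of 13 tested, 3 were higher and 3 lower in Dkk1_KO (median log2 fold change -0.60). These counts were near the shares over all genes tested, 21.3% higher and 23.0% lower. The sum of the 13 genes was 61.6 to 62.2 TPM in Dkk1_KO, against 53.1 to 53.9 TPM in control. Erbb3, a receptor of crest and of epithelia, rose by 5.01 ± 0.28 (edgeR adjusted p = 6.22e-06). Ednrb fell by 3.47 (SE 0.40; edgeR adjusted p = 0.000225) and Foxd3 by 2.73 (SE 0.64; 0.00836). Foxd3 was at 0.186 ± 0.145 TPM in Dkk1_KO and 1.51 ± 0.633 TPM in control, and whether its fall concerns crest was not tested. Among epiblast genes Tdgf1, a co-receptor of Nodal, fell by 9.59 on the log2 scale (SE 0.39; edgeR adjusted p = 1.41e-06), and Lefty1, an antagonist of Nodal, fell by 8.93 (SE 0.35; 1.27e-06).

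Few genes of these lists were called in the comparisons between groups other than Dkk1_KO, and these calls come from the model of all libraries. The fit of the 6 libraries without Dkk1_KO called 12 of all genes in IWP2 against control, in place of 396. It called 1 in IWP2_removed against control, in place of 227, and 1 in IWP2_removed against IWP2, in place of 11. Calls of single list genes in that fit are not reported here. In IWP2 against control Erbb3 fell by 1.61 (SE 0.30; edgeR adjusted p = 0.0338), Krt7 fell by 1.65 (SE 0.29; 0.0292) and Gdf3, a ligand of the Nodal pathway in epiblast, fell by 4.52 (SE 0.46; 0.00382). Gdf3 was higher by 4.53 ± 0.46 in IWP2_removed against IWP2 (log2, SE; edgeR adjusted p = 0.0281), with 13.9 ± 3.28 TPM in IWP2_removed and 0.575 ± 0.114 TPM in IWP2. No gene of the family relatives, mesenchymal, other surface ectoderm or feeder lists was called by edgeR in these 3 comparisons. At an unadjusted p below 0.05 the other surface ectoderm list had 6 of 21 genes in IWP2 against control (16.4% of all genes), 6 in IWP2_removed against control (11.9%) and 3 in IWP2_removed against IWP2 (9.69%). The mesenchymal list had none of 11, the family relatives had 3, 2 and 3 of 14 in the same order of comparisons, and the feeder genes had 3, 1 and 3 of 16.

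**Figure D4:**
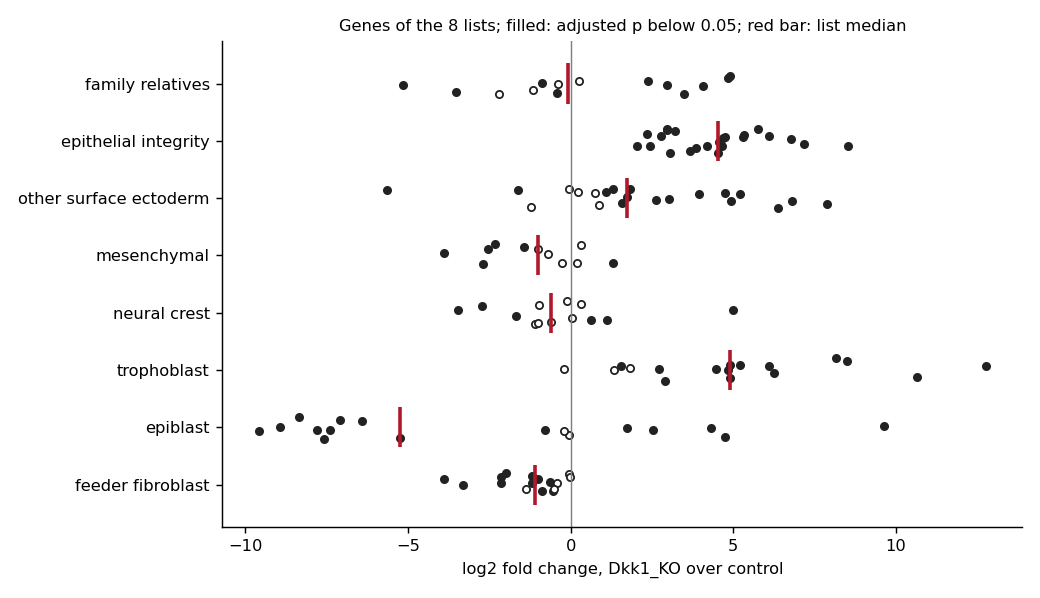
Log2 fold change of Dkk1_KO over control from edgeR (horizontal axis) for the tested genes of 8 lists, 1 row per list, with the list median as a red bar; filled points passed an adjusted p of 0.05. The medians are 4.54 for epithelial integrity and 4.90 for trophoblast genes, -5.24 for epiblast and -1.10 for feeder genes, and points of genes with 3 or fewer reads in each library of a group, such as Hand1 and Elf5 in control, rest on those few reads.

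The genes whose levels followed each of the 7 tested genes most closely over the 9 libraries were found by Pearson's r of log2 CPM. For Grhl2 these were Pik3cb and Tmem87a (r = 0.999 and 0.998), for Grhl1 Diaph1 and G730013B05Rik (0.998 and 0.997), for Grhl3 Syne3 and Iqsec1 (0.995 and 0.994) and for Ovol2 Hdac6 and Cd82 (0.998 and 0.997). Msx2 was nearest to Ap3b1 and Urgcp (0.996 and 0.992), Tfap2a to Lmtk3 and Rnd1 (0.991 and 0.986) and Trp63 to Carf and Cobl (0.938 and 0.929). For Grhl2, Grhl1 and Ovol2 as many as 1306, 1317 and 1291 of 18095 genes had an r above 0.95, against 30 for Tfap2a and none for Trp63. The 9 libraries fall into Dkk1_KO and the rest, so a high r is shared by the many genes that separate these, and it is given as a description of likeness only.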

How the data were processed

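Estimated counts and TPM per transcript were deposited by the authors and made with Salmon, per the file headers and the submitters' processing notes, which also name DESeq2 and edgeR; versions, the transcriptome build and the strand setting are not given in the sources used here. Libraries were TruSeq stranded mRNA, per the labels' protocols. Transcripts were joined to genes with GENCODE vM21 (GRCm38): 133399 of 133618 matched, and the rest held 0.117% to 0.161% of the reads. Expected counts, deposited by the authors as such estimates, were summed to 52609 genes, rounded, scaled by TMM and filtered with filterByExpr (at least 0.641 CPM in 2 libraries, with 18096 genes left).

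Groups were compared with edgeR 4.0.16 (R 4.3.3) in 1 quasi-likelihood model over all 9 libraries, without a replicate term, with Benjamini-Hochberg adjustment over the genes tested and a threshold of 0.05. The common dispersion was 0.0524. Levels are TPM as deposited, and log2 fold changes come from counts. Alternatives used DESeq2 1.42.0 and limma 3.58.1 on log2(TPM + 1), other filters and normalizations, a length offset, other sets of libraries and each library left out. The pipeline was tested on simulated data. Promoters came from RefSeq (GRCm38.p6), which held 7 promoters of 5 of the 9 genes, Grhl1, Grhl3, Tfap2a, Ovol2 and Msx2. Grhl2, Trp63, Ovol1 and Dlx5 were not matched.

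The 9 genes and the 8 lists were chosen with earlier results of these data known, so no count over them is independent support. The lists also share genes. Tfap2c and Dlx3 are both relatives and trophoblast genes, and Gata3 is on the surface ectoderm and trophoblast lists. Cldn6 is on the epithelial and epiblast lists, and Snai2 on the mesenchymal and crest lists. All 9 genes are described in every comparison. Of each list the text names up to 4 called genes with the smallest adjusted p in Dkk1_KO against control and every called gene of the other comparisons up to 4. Some genes that this rule takes are not reported here. For likeness it names the 2 genes with the highest r. A gene outside this rule is marked in the text as picked from its values. No label gives the compound SB431542 of the treatment protocol to these groups.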

Additional observations from a re-analysis of the deposited data

How the results depend on the processing

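In Dkk1_KO against control 6 of the 9 genes were called under 13 of 14 alternatives, and 7 in the fit of only the 2 groups, where Trp63 passed as lower (-1.34, edgeR adjusted p = 0.0477). Trp63 had 2 to 6 reads in Dkk1_KO, with no Dkk1_KO library above the main filter's minimum, so its direction is no support. The 6 included the fit with the Dkk1_KO libraries averaged to 1, which called 2724 of all genes in place of 8018. In IWP2 against control DESeq2 called 1067 of all genes and the fit without a filter 1220, in place of 396. Among the 9 genes the count of 1 became 2 with DESeq2 (Tfap2a added) and 3 without a filter (Tfap2a and Msx2 added). It became 0 with a length offset, in the fit of the 2 groups alone, with limma on log2(TPM + 1), and in the 6 libraries that leave out Dkk1_KO, both alone and with a replicate block (added after seeing the data). With 1 library left out, Grhl2 ran from -2.69 (without IWP2 replicate 1) to -1.71 (without control replicate 1). Without IWP2 replicate 2 Grhl2 was -1.77 and Tfap2a 2.73, in opposite directions. In IWP2_removed against control the count of 0 became 1 with DESeq2 and 1 without a filter, and stayed at 0 with each library left out. In IWP2_removed against IWP2 it became 1 with DESeq2, 1 without a filter, and 0 to 1 with a library left out, with Tfap2a (-1.81) called without IWP2 replicate 2. With DESeq2 the calls among all genes also rose, from 227 to 657 in IWP2_removed against control and from 11 to 382 in IWP2_removed against IWP2. The cause of these moves was not tested.

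With replicate number as a block in the model of all 9 libraries the counts were 6 in Dkk1_KO against control, 1 in IWP2 against control, 0 in IWP2_removed against control and 0 in IWP2_removed against IWP2, so the block changed no call among the 9 genes. It turned Grhl1 in IWP2_removed against IWP2 to 0.0301 (0.0411 in the 6 libraries without Dkk1_KO) and Grhl3 in IWP2 against control to -0.0376 in the 6 libraries. Differences of same-numbered libraries correlated at 0.334 to 0.500 among the 3 groups without Dkk1_KO and at -0.055 to -0.032 with it. With 2 shared numbers this does not show that the numbers pair the samples, nor that they do not. Feeder gene sums were higher in replicate 1 than in replicate 2 of each of these 3 groups. In the 6 libraries without Dkk1_KO the block raised the calls among all genes from 12 to 448 in IWP2 against control. In IWP2_removed against control it raised them from 1 to 202. Without a filter Grhl1 in IWP2_removed against IWP2 was 0.0231. Leaving out 1 library in turn also turned the direction of values that were not called. In IWP2 against control Grhl1 ran from -0.89 to 0.15 (without IWP2 replicate 2), Grhl3 from -1.26 (without IWP2 replicate 1) to 1.03 and Ovol2 from -0.83 to 0.80 (without control replicate 2). In IWP2_removed against control Grhl3 ran from -0.74 to 0.32 and Msx2 from -0.68 to 0.30 (both high ends without IWP2_removed replicate 2), and Ovol2 from -0.39 (without control replicate 1) to 1.24. In IWP2_removed against IWP2 Grhl1 ran from -0.43 to 0.60, Grhl3 from -1.15 to 1.14 and Tfap2a from -1.81 to 0.18, with the highest values without IWP2 replicate 1, and without IWP2_removed replicate 2 Grhl1 was 0.0582 and Grhl3 0.0047. Levels over coding transcripts alone moved past the replicate SD in 5 of 36 cases, among them Grhl2 in Dkk1_KO (14.9 TPM, against 17.6 TPM over all transcripts). Over all alternatives the calls among all genes ran from 2724 to 10146 in Dkk1_KO against control, 1 to 2432 in IWP2 against control, 1 to 732 in IWP2_removed against control and 0 to 454 in IWP2_removed against IWP2. With 33 reads of Dlx5 and 23 of Ovol1 over all libraries, small differences of these genes were not detectable at this depth. Without the filter their SE in Dkk1_KO against control was 0.97 (Dlx5) and 1.03 (Ovol1) on the log2 scale. Leaving out a library leaves groups of 1 whose spread is taken from the other groups.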
